A study of Mus musculus with 4 samples.

Results

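Neurons that carry Npy and Maf transcripts but no Mef2c transcript were examined in the MGE, the medial of the ganglionic eminences that line the ventral side of the embryonic telencephalon. They were chosen cell by cell from their own unique molecular identifier (UMI) counts. A barcode needed at least 3000 UMIs and at most 10% mitochondrial UMIs, at least 2 UMIs of Npy, at least 1 of Maf, none of Mef2c, at most 2 of Sst, and at least 2 UMIs summed over the neuronal genes Stmn2, Gap43 and Mapt. This rule found 1862 cells among 14058 neurons, which met the same limits on UMIs and on the neuronal genes, and among 19032 cells in all. They are called Npy/Maf cells here, and the 7 genes of the rule are described without a test.

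Mouse MGE at e14.5, of a mixed C57/BL6 and ICR strain, had been dissociated and sequenced cell by cell in 10x Genomics droplets. Of the 4 libraries, 2 were labelled St18 (-/-), called null, and 2 WT, all from crosses of heterozygous parents with WT littermates as controls. Null and WT tissue was pooled by genotype before dissociation, so a library holds several embryos whose number and sex were not given. The deletion was in the whole animal and not limited to the MGE. The study calls the libraries of a genotype biological replicates and gives no further detail of the pools, and p-values measure the spread between these libraries. Lists of 4 values give null replicates 1 and 2, then WT replicates 1 and 2.

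The MGE gives rise to GABAergic interneurons that migrate into cortex, striatum and hippocampus, and to projection neurons of the pallidum. Nkx2-1 sets the regional identity of its progenitors, and Lhx6 acts downstream of it in the postmitotic lineage. Maf encodes a basic leucine zipper transcription factor that acts in the fate and maturation of MGE interneurons. Mef2c encodes a transcription factor linked to the parvalbumin interneuron lineage, and Sst encodes somatostatin, the marker of another large interneuron class. Npy encodes neuropeptide Y, a secreted peptide kept by several interneuron types in the adult.

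The matrices held 70991150 to 92984713 UMIs per library, and the sums over Npy/Maf cells held 5471338, 3941315, 2662995 and 2101403 UMIs. Npy/Maf cells had a median of 6122, 8309.5, 5386 and 5396 UMIs, so both null libraries were deeper than both WT libraries. Between 4 and 11 barcodes were shared by any pair of libraries, and 0 of them were Npy/Maf cells. Counts in Npy/Maf cells differed more between the null replicates than between the WT replicates, with a chi-square per degree of freedom of 8.08 and 1.51. Expression is given in CPM, the UMIs of a gene per 1000000 UMIs of the cells summed, and fold changes are on a log2 scale after TMM scaling.

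The targeted gene did not separate the labels over all Npy/Maf cells. St18, which encodes a zinc finger transcription factor, was at 22.7, 59.6, 31.2 and 40.4 CPM in Npy/Maf cells. The library labelled null replicate 2 was above both WT libraries and null replicate 1 was below both. By the quasi-likelihood test in edgeR, null differed from WT by a log2 of 0.04 (SE 0.29, adjusted p = 0.974). A single library set its direction, since the difference was −0.74 without null replicate 2 and 0.60 without null replicate 1. In these 2 fits the spread came from the WT libraries alone, which differed less than the null libraries did, so they are given as values. The deletion removes inner exons and leaves the rest of the gene, so St18 UMIs check a label only in part. The study reports that the transcript remained in St18 (-/-) libraries but was significantly lower in neurons. It found no St18 protein signal in St18 (-/-) embryos by immunohistochemistry. Sex differed with the labels. Xist, the RNA that silences an X chromosome in female cells, was at 695 and 1568 CPM in the null libraries and at 0.376 and 0 CPM in the WT libraries. Among Npy/Maf cells with a clear sex, St18 was at 14.9 and 29.2 CPM in male cells of the null libraries, at 33.7 and 42.1 CPM in male cells of the WT libraries, and at 26.0 and 75.7 CPM in female cells, which only the null libraries held. Over all male neurons St18 was at 20.2 and 23.3 CPM in the null libraries and at 37.4 and 49.9 CPM in the WT libraries. Female neurons of the null libraries held 15.0 and 74.1 CPM. The part of sex in any difference between null and WT was not tested beyond the values for male cells given below.

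Npy (ENSMUSG00000029819, chromosome 6, 49822710 to 49829507, GRCm38) was at 1064, 1070, 1545 and 1238 CPM in Npy/Maf cells, so it was lower in both null libraries than in both WT libraries. Cells held a median of 7, 7, 8 and 6 Npy UMIs, and 51, 64, 54 and 36 at most. Maf (ENSMUSG00000055435, chromosome 8, 115682942 to 115707794) was at 420, 543, 474 and 456 CPM, with the WT libraries inside the range of the null libraries. These levels were part of the choice of cells and are given without a test. A deeper cell meets the limit on Npy at a lower level, and both null libraries were deeper. Over all neurons Npy was at 347, 322, 412 and 293 CPM, and the genotypes overlapped. The part of depth in the order of null and WT was not tested. Background RNA has to be set beside these levels, since droplets with under 100 UMIs held Npy at 336, 298, 187 and 144 CPM. In erythroid cells, which do not use the gene, 11.8%, 14.6%, 5% and 5.88% held a Npy UMI at a median of 9970 to 13746.5 UMIs, yet 0 met the limits on Npy, Maf, Mef2c and Sst in any library. Among cells with no UMI of the 3 neuronal genes and at least 10 UMIs over 7 progenitor genes, at a median of 8426 to 11356 UMIs, 24.2%, 28.6%, 13.3% and 13.5% held a Npy UMI, more in both null libraries than in both WT libraries, and 3.77%, 7.55%, 1.36% and 1.79% met the limits on Npy, Maf, Mef2c and Sst.

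At the edge of the rule on Npy, neurons with exactly 2 UMIs numbered 99, 48, 42 and 58, and those left outside with 1 UMI numbered 161, 106, 79 and 70. Rprm was at 476, 304, 517 and 400 CPM just inside that limit and at 444, 306, 678 and 325 CPM just outside. Neto1 was at 84.8, 123, 77.9 and 76.5 CPM inside and at 62.5, 72.2, 116 and 85.1 CPM outside. Cells on both sides of the limit thus overlapped in both genes. The limit on Mef2c kept out 146, 120, 88 and 53 cells that held 1 Mef2c UMI and met the rest of the rule.

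The MGE origin in the name of the cells, MGE interneuron precursors, was checked against markers. Lhx6 UMIs were found in 90.7%, 95.5%, 79.9% and 84.2% of Npy/Maf cells, against 71.9%, 79.7%, 68.0% and 69.1% of all neurons. Thinned to 3000 UMIs per cell, to remove the difference in depth, these shares were 70.8%, 76.1%, 64.2% and 68.4% against 52.8%, 59.5%, 51.0% and 51.6%. None of Lhx6, Nkx2-1 and Lhx8 was found in 4.58%, 1.24%, 6.32% and 6.57% of Npy/Maf cells. With all UMIs, Lhx6 and Nkx2-1 together were found in 64.2%, 72.9%, 51.1% and 52.5% of Npy/Maf cells, against 54.8%, 62.3%, 49.6% and 52.3% of all neurons. Lhx8 was found in 38.1%, 43.3%, 29.7% and 34.0%, against 39.3%, 39.4%, 39.1% and 46.0% of all neurons. The study ties sustained Nkx2-1 to pallidal neurons among others, so these genes do not set interneurons apart from those. Markers of other cell classes were summed too. The 9 pallial markers summed to 1.13 to 3.81 CPM and the 7 microglial markers to 0.751 to 1.64 CPM, with Aif1 at 0 in all 4 libraries. The 6 endothelial and pericyte markers summed to 10.7 to 19.99 CPM and the 6 erythroid markers to 77.7 to 113 CPM. The 8 markers of the caudal ganglionic eminence summed to 207 to 321 CPM with Vip at 0 in all libraries, and the 10 striatal and lateral ganglionic eminence (LGE) markers to 1427 to 1995 CPM with Drd1 at 0 in all libraries. The 10 progenitor markers summed to 3114, 2816, 2349 and 2346 CPM, below the 3296, 2985, 2900.0 and 2900.4 CPM of droplets with under 100 UMIs in each library. In those droplets the caudal markers summed to 230 to 304 CPM, about the level in the cells, and the LGE and striatal markers to 878 to 1147 CPM.

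Cell cycle genes were found in part of the cells. At least 2 UMIs of Mki67 and Top2a, which mark dividing cells, were counted in 35.2%, 40.0%, 22.0% and 25.7% of Npy/Maf cells, against 41.9%, 47.7%, 31.8% and 33.1% of all neurons. Thinned to 3000 UMIs, at least 1 UMI of either gene was found in 39.7%, 41.8%, 29.98% and 34.0% of Npy/Maf cells and in 46.5%, 47.4%, 38.4% and 39.8% of all neurons. Erythroid cells reached the unthinned count in 15.7%, 24.4%, 10% and 14.7%. After thinning, Npy/Maf cells with a Mki67 UMI had a Npy level of 1035, 832, 1174 and 859 CPM, and those without one had 1371, 1324, 1810 and 1485 CPM. In every library Npy was lower in the cells with Mki67. This is a description without a test, since Npy is a gene of the rule, whose limit a deeper cell meets at a lower level. The part of depth in it was not tested. Counts of genes below are also given with cycling cells, those with at least 2 such UMIs, left out where that moved them by over 1.5 times.

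**Figure D1:**
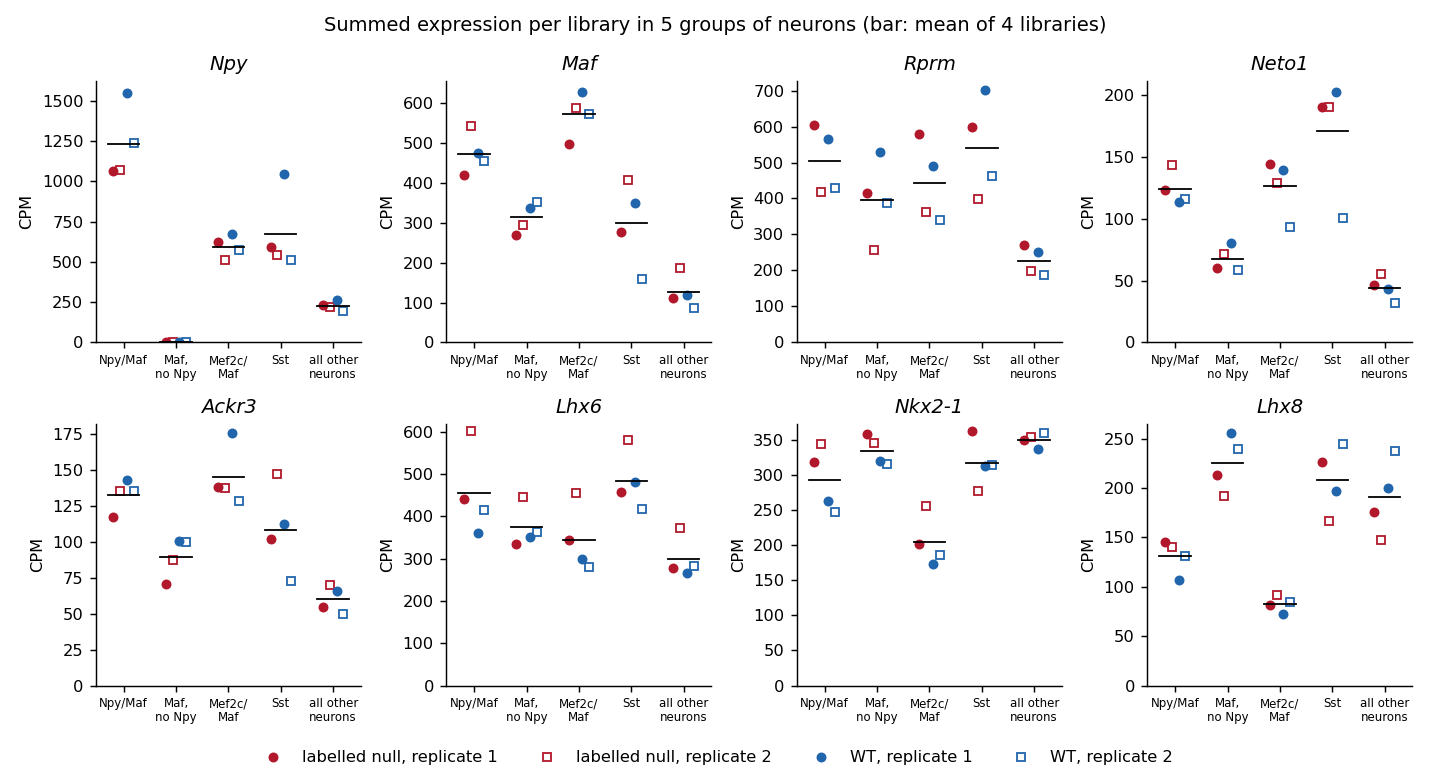
Summed expression in CPM of 8 genes in 5 groups of neurons, a point per library and a bar at the mean of the 4 libraries. Npy and Maf were used to choose the cells. Rprm, Neto1 and Ackr3 were higher in Npy/Maf cells than in all other neurons pooled in each library, while in Mef2c/Maf and Sst cells all 3 overlapped with them and Neto1 reached 203 CPM, and Nkx2-1 and Lhx8 were lowest in Mef2c/Maf cells.

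Rprm, Neto1 and Ackr3 had been picked as markers with results of these data known, so their levels in Npy/Maf cells against other cells are a description without a test. Rprm, which encodes reprimo, a protein linked to cell cycle arrest, was at 604, 419, 564 and 430 CPM. Neto1, which encodes an auxiliary subunit of kainate and NMDA receptors, was at 123, 144, 114 and 116 CPM. Ackr3, a chemokine receptor that scavenges CXCL12 and acts in interneuron migration, was at 117, 135, 143 and 135 CPM. The genotypes overlapped in Rprm, both null libraries were above both WT libraries in Neto1, and both were below in Ackr3, where null replicate 2 and WT replicate 2 were nearly level. All 3 genes together were found in 25.9%, 34.3%, 21.1% and 22.4% of Npy/Maf cells and in 11.5%, 16.9%, 8.98% and 6.81% of neurons. None of the 3 was found in 4.15%, 4.23%, 4.68% and 6.27% of Npy/Maf cells and in 26.4%, 24.4%, 30.4% and 36.3% of neurons.

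Cells were grouped by their Npy UMIs after thinning to 3000 UMIs, from 0 or 1 to 10 and over. Maf was lower in the lowest group than in the group with 2 to 4 UMIs in each library, at 360, 484, 450 and 485 CPM against 521, 665, 544 and 534 CPM. Cells of the lowest group were deeper, with a median of 7838, 9249, 6296.5 and 6067 UMIs against 5858, 8400, 5593 and 5231. Maf is a gene of the rule, whose limit a deeper cell meets at a lower level. The choice of cells can thus set this step in Maf. Rprm went over the same step from 550, 357, 455 and 439 CPM to 753, 523, 643 and 495 CPM, higher in each library, which is a description without a test. Ackr3 was higher after that step in each library as well, by little in the WT libraries, and Neto1 was higher in all but null replicate 2. Above 4 UMIs none of these genes kept an order that all libraries shared. The highest group held only 42, 33, 64 and 26 cells.

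**Figure D2:**
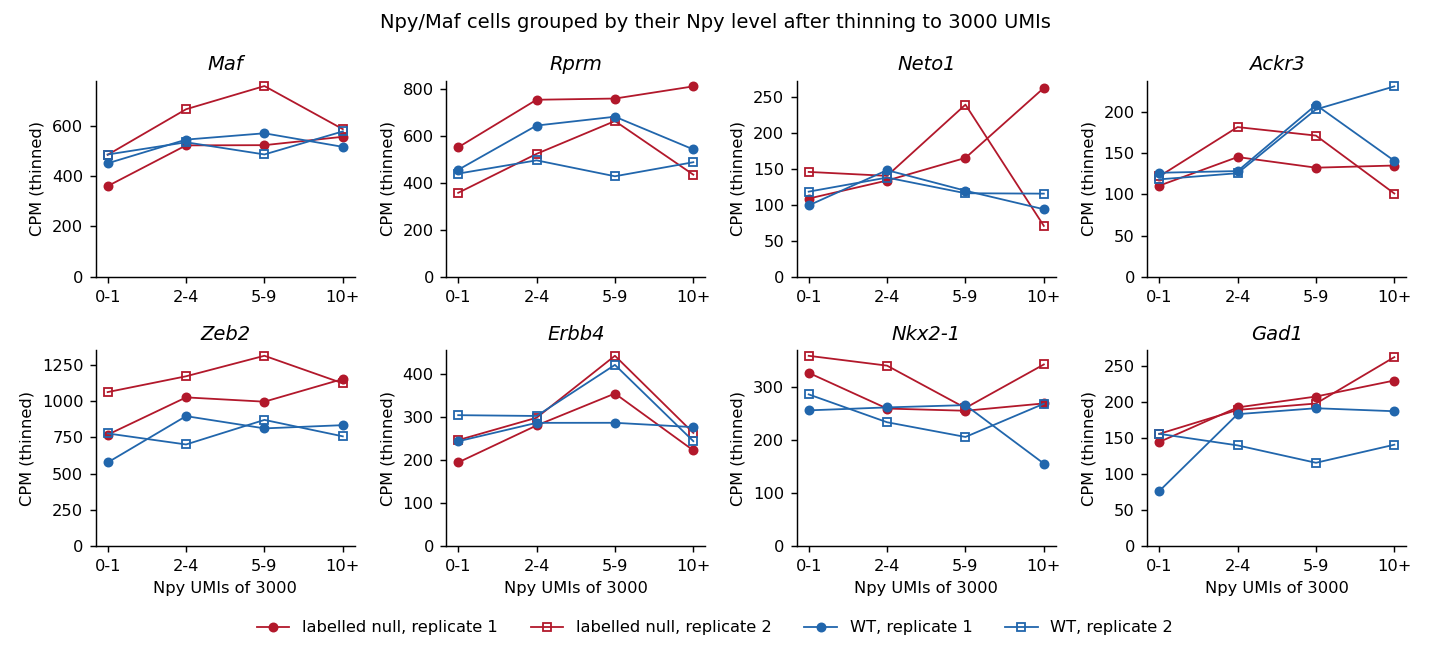
CPM of 8 genes in Npy/Maf cells grouped by Npy UMIs after thinning each cell to 3000 UMIs, a line per library. From the lowest to the next group Maf, Rprm and Ackr3 were higher in all 4 libraries, while Neto1, Zeb2, Nkx2-1 and Gad1 differed between libraries. Maf was used to choose the cells, and cells of the lowest group were deeper than those of the next.

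The share of neurons that were Npy/Maf cells did not differ between genotypes beyond what 2 libraries each can show. It was 14.7% and 14.0% in the null libraries and 13.2% and 10.5% in the WT libraries, with exact Clopper-Pearson intervals of 13.7 to 15.7, 12.7 to 15.3, 12.03 to 14.4 and 9.47 to 11.6% that cover counting error only. Both null libraries were thus above both WT libraries, with a mean of 14.3 ± 0.474% against 11.8 ± 1.89% (SD, n = 2 each). The difference was 2.49 percentage points in a two-sided exact permutation test with p = 0.333, the smallest this design allows. Thinned to 3000 UMIs per cell, the shares were 10.8%, 9.46%, 10.6% and 7.27%, and the groups then overlapped. Npy in background droplets was also higher in both null libraries than in both WT libraries, as given above. Its part in the shares was not tested.

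The neighbouring combinations of the 4 genes gave 0 calls. Of 15 combinations of Npy, Maf, Mef2c and Sst with enough cells, 0 passed an adjusted p of 0.05 in edgeR and 0 passed an unadjusted p of 0.05, while a likelihood ratio test called 0 and had 1 at an unadjusted p under 0.05. The Npy/Maf combination differed by a log2 of 0.28 (edgeR, SE 0.16, adjusted p = 0.554). The same cells with Mef2c numbered 299, 318, 159 and 102, both null libraries above both WT libraries (log2 1.09, SE 0.43, adjusted p = 0.554, edgeR). That combination passed the threshold with a limit of 5000 UMIs per cell and with cycling cells left out.

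**Figure D3:**
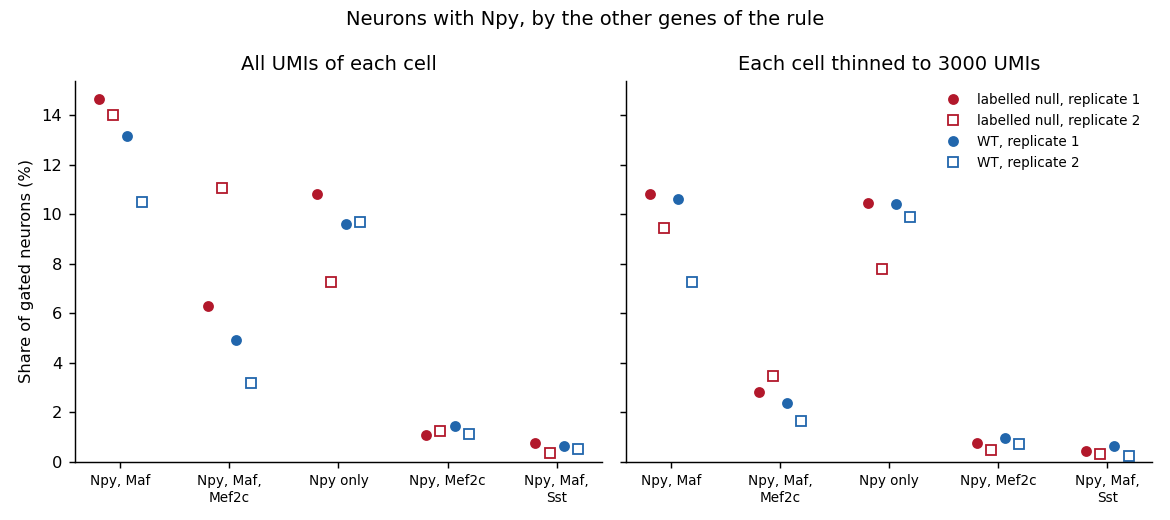
Share of gated neurons in percent for 5 combinations that include Npy, a point per library, with all UMIs on the left and after thinning each cell to 3000 UMIs on the right. Npy/Maf cells made up 10.5 to 14.7% of neurons on the left, and on the right null replicate 2 lies below WT replicate 1.

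Npy/Maf cells were first compared with 1285 neurons that met the same rule but held no Npy UMI, to see what else differs with Npy. Npy/Maf cells held more transcripts of MGE interneuron genes and fewer of genes of the neighbouring LGE and of ventral pallidal neurons. Of 11062 genes, 538 were higher (4.86%) and 795 lower (7.19%, in all 12.1% of the genes tested, edgeR, adjusted p under 0.05, library as a block). Rprm was at 415, 257, 529 and 387 CPM in the cells without Npy, below Npy/Maf cells in each library (log2 0.40, SE 0.07). Neto1 was at 59.9, 71.3, 80.2 and 58.7 CPM, below every Npy/Maf value (log2 0.93, SE 0.08). Ackr3 was at 70.6, 87.1, 100 and 99.8 CPM, again below every Npy/Maf value (log2 0.62, SE 0.07).

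Of 14 MGE interneuron genes tested, 10 were higher and 1 lower in Npy/Maf cells, with a median log2 fold change of 0.26 against 0.0045 over all genes. The transcription factors Sox6 (0.50), Zeb2 (0.56) and Lhx6 (0.30) were higher, as was Nxph1 (0.87), which encodes a neurexophilin that binds neurexins. Lhx8, a LIM homeobox gene used in pallidal and cholinergic neurons, was at 145, 141, 107 and 131 CPM against 213, 192, 255 and 240 CPM, lower in each library with no overlap (log2 −0.72, SE 0.08, adjusted p = 1.65e-07, edgeR). Nkx2-1 was at 319, 344, 264 and 247 CPM against 358, 345, 320 and 315 CPM, a log2 difference of −0.16 that did not pass (SE 0.06, adjusted p = 0.0633, edgeR). It passed in 7 of 15 alternatives, with −0.44 after thinning and −0.25 without cycling cells.

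Of 8 LGE and striatal genes, 6 were lower and 2 higher. Ebf1, a transcription factor of striatal projection neurons, was at 33.6, 41.6, 33.8 and 16.7 CPM against 114, 227, 67.0 and 63.1 CPM (log2 −1.87, SE 0.12, adjusted p = 7.39e-12, edgeR). The groups did not overlap. Meis2 (−1.03), Six3 (−1.04) and Foxp2 (−2.18) were lower too. Of 8 ventral telencephalic and pallidal genes, 6 were lower, among them Zic1 (−1.16) and Gbx1 (−2.13), and 1 was higher. Of 10 progenitor genes, 8 were lower, among them Fabp7 (−1.04), Hes5 (−1.08), Mki67 (−0.39) and Top2a (−0.24), and 1 was higher, Sox2 (0.36). Since Mki67 and Top2a define the cycling cells, leaving those out bears on neither gene.

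GABA genes were higher, with 4 of 5 called, as in Gad1 (0.63), which makes GABA from glutamate. Of 13 migration and guidance receptor genes tested, 8 were higher, Ackr3 counted, and 3 lower. Epha5, an ephrin receptor, was at 729, 753, 833 and 697 CPM against 329, 417, 452 and 422 CPM (log2 0.93, SE 0.05, adjusted p = 3.04e-13, edgeR), and the groups did not overlap. The neuregulin receptor Erbb4 was higher (0.83), while the semaphorin receptor Nrp2 (−1.27) and the netrin receptor Dcc (−0.86) were lower. Of 12 kainate and AMPA receptor genes, 3 were higher, Neto1 counted and Gria4 (0.85) among them, and 3 lower. Pam, which amidates neuropeptides, was at 79.9, 89.3, 66.8 and 53.3 CPM against 38.1, 48.7, 38.0 and 43.3 CPM (log2 0.86, SE 0.10, adjusted p = 2.38e-07, edgeR). It was 1 of 2 genes called higher among 11 for peptide processing and dense-core vesicles, with 2 lower.

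Of the other genes with the largest changes, Dlgap1 (0.90), Gucy1a1 (0.85) and Epb41l4a (0.86) were higher, and Rgcc (−1.49) and Adarb2 (−1.36) lower. Hbb-y, an embryonic hemoglobin, had the largest fall, at 3864 CPM in WT replicate 1 of the cells without Npy, where 2 erythroid cells were counted, and its call was lost with cells of other classes left out, without WT replicate 1, after thinning, with DESeq2 and without the block. The number of genes called fell from 1333 to 614 without cycling cells, to 225 after thinning, to 351 with DESeq2, to 90 without the library block, and to 687 and 563 without null replicate 1 and null replicate 2. Without the block the calls of Lhx6, Zeb2, Sox6, Meis2, Six3, Fabp7, Hes5, Rgcc, Mki67 and Top2a were lost, after thinning those of Lhx6, Nxph1, Gria4, Epb41l4a, Hes5 and Rgcc, with DESeq2 those of Fabp7, Hes5 and Rgcc, and without cycling cells that of Rgcc.

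Npy/Maf cells were next compared with 1527 neurons that held Maf and at least 1 Mef2c UMI and had the same limit on Sst but none on Npy. At least 2 Npy UMIs were found in 61.6%, 61.2%, 50.2% and 49.8% of the latter, so the groups differed in Npy as well as in Mef2c. Of 11521 genes, 370 were higher (3.21%) and 609 lower (5.29%, in all 8.5% of the genes tested, edgeR, library as a block). The compared cells held 9, 12, 4 and 11 cells of other classes, of which 7, 3, 4 and 10 were microglia, against 0, 1, 0 and 1 cells of other classes among Npy/Maf cells. The genes with the largest fall included Tyrobp, C1qa, C1qb, Cx3cr1, Fcer1g, Apoe and C1qc, which microglia use. C1qc, a complement subunit, was at 0, 0, 0 and 0.476 CPM against 29.5, 29.6, 57.5 and 234 CPM. With these cells left out, 396 genes were higher and 399 lower, and the lower genes Efcab6, Epha5, Adarb2, Cacng2, Ntrk2, Nr2f1, Negr1 and Snhg11 were named there, with values below from all cells.

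Nkx2-1 was at 202, 255, 173 and 186 CPM in Mef2c/Maf cells and higher in Npy/Maf cells in each library (log2 0.58, SE 0.05, adjusted p = 4.52e-09, edgeR). Lhx8 was at 81.9, 91.3, 72.0 and 84.9 CPM, below every Npy/Maf value (log2 0.72, SE 0.06, adjusted p = 4.87e-09, edgeR). Lhx6 (0.43) and Sox6 (0.37) were higher as well, so that 9 of 14 MGE interneuron genes were higher and 3 lower. Zeb2 (−0.30) was among the lower ones. The level of Lhx8 in Npy/Maf cells was below that in Maf cells without Npy and above that in Mef2c/Maf cells in each library.

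Other genes with the largest rise were Nav2 (0.76), a neuron navigator of the cytoskeleton, Tiam2 (0.74), a Rac exchange factor, the POU factors Pou3f2 (0.65) and Pou3f4 (0.62), the GTPase Rnd2 (0.58), and the linker histones Hist1h1a (0.63) and Hist1h1d (0.59). Rnd2, which acts in neuronal migration, was at 145, 147, 151 and 147 CPM against 109, 105, 98.1 and 83.4 CPM, with no overlap. Epha5 was lower than in Mef2c/Maf cells, which held 1552, 1426, 1950 and 1368 CPM (log2 −1.01, SE 0.04, adjusted p = 1.13e-15, edgeR). Its level in Npy/Maf cells therefore lay between that in Maf cells without Npy and that in Mef2c/Maf cells in each library.

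Of 12 kainate and AMPA receptor genes, 5 were lower and 1 higher. Gria1, an AMPA receptor subunit, was at 6.21, 14.2, 10.1 and 11.9 CPM against 37.8, 37.6, 44.5 and 45.7 CPM, without overlap (log2 −1.93, SE 0.15, adjusted p = 1.13e-09, edgeR). Its auxiliary subunit Cacng2 (−0.89) was lower too. Of 13 migration and guidance genes, 4 were lower, among them Cxcr4 (−1.74), the signalling receptor for CXCL12, and 5 higher, among them Epha4 (0.49). The markers Ackr3, Neto1 and Rprm had log2 fold changes of −0.09 (SE 0.06), 0.00 (SE 0.07) and 0.23 (SE 0.04).

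Genes of the caudal ganglionic eminence were lower in 3 of 7 tested, namely Nr2f1 (−0.86), Nr2f2 (−0.67) and Adarb2 (−0.97), and none was higher. The same 3 genes were lower against Maf cells without Npy (−0.44, −0.30 and −1.36), where Calb2 was higher (1.96). Against the Sst cells compared below they were lower too (−0.67, −0.84 and −2.18), and Prox1 was higher (0.61). Efcab6 (−1.09), the neurotrophin receptor Ntrk2 (−0.77), the adhesion protein Negr1 (−0.76) and the noncoding RNA Snhg11 (−0.85) were lower than in Mef2c/Maf cells. Of 4 genes tested among neuropeptides and markers of Npy classes, 2 were lower, among them Tac1 (−1.505), which encodes substance P. Of 10 neuron maturation genes, 4 were lower and 0 higher. After thinning 213 genes were called, with DESeq2 351, without the block 118, without cycling cells 635, without null replicate 1 607 and without WT replicate 1 565. Without the block the calls of Lhx6, Sox6, Zeb2, Epha4, Pou3f2, Nr2f2, Adarb2, Tac1, Ntrk2, Negr1, Snhg11 and Hist1h1d were lost, and Hist1h1a was lost without cycling cells. Thinning lost Tiam2, Hist1h1d and Nr2f2 and turned Hist1h1a to −0.14, and with DESeq2 Adarb2 and Snhg11 were lost. The call of Apoe was lost after thinning and with cells of other classes left out.

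The third comparison was with 349 neurons that held at least 3 Sst UMIs, with no limit on the other genes. Maf was found in 57.4%, 63.3%, 56.4% and 41.5% of these Sst cells, Npy in 56.6%, 51.7%, 56.4% and 51.2% and Mef2c in 20.2%, 31.7%, 24.4% and 10.98%, so the groups differed in all 4 genes. Of 10188 genes, 844 were higher (8.28%) and 1172 lower (11.5%, in all 19.8% of the genes tested, edgeR, library as a block). Reln, a secreted matrix protein, was at 4.57, 3.55, 1.88 and 5.23 CPM against 47.9, 67.2, 55.1 and 57.7 CPM (log2 −3.82, SE 0.23, adjusted p = 2.36e-10, edgeR). Nrp2 was at 8.59, 14.46, 7.89 and 13.8 CPM against 111, 165, 134 and 158 CPM (log2 −3.64, SE 0.14, adjusted p = 9.27e-14, edgeR). Both genes were far apart in all libraries, in the same direction.

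Of 4 genes tested among neuropeptides and markers of Npy classes, 3 were lower, namely the peptide genes Tac1 (−1.79) and Pnoc (−1.95) and the matrix gene Reln. The 1 Npy receptor with enough counts, Npy2r, was at 3.84, 4.06, 6.01 and 3.33 CPM against 18.3, 28.0, 39.4 and 20.7 CPM, with no overlap (log2 −2.54, SE 0.27, adjusted p = 4.93e-07, edgeR). Of 9 genes of peptide processing and dense-core vesicles, 4 were lower, such as Pcsk1n (−1.82) and Chgb (−0.97), and Pam was higher (0.98). Of 12 kainate and AMPA receptor genes, 8 were lower, Neto1 counted, and none higher, among them Gria1 (−2.51), Gria2 (−1.25) and Grik1 (−1.37). Neto1 was at 191, 191, 203 and 101 CPM in Sst cells (log2 −0.44).

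Satb1, a chromatin organizer needed by Sst interneurons, was lower in Npy/Maf cells, at 137, 163, 129 and 119 CPM against 238, 300, 264 and 262 CPM (log2 −0.93, SE 0.09, adjusted p = 1.57e-07, edgeR). Of 14 MGE interneuron genes tested, 5 were lower, Satb1 counted, and 6 higher. Sox6 (−0.35) and Lhx8 (−0.64) were among the lower ones. Zeb2 (0.74), Etv1 (0.56), Dlx6 (0.54) and Dlx1 (0.47) were among the higher ones. Lhx6 and Nkx2-1 did not pass, with log2 fold changes of −0.08 (SE 0.09) and −0.10 (SE 0.10), though both passed after thinning (−0.28 and −0.55) and Nkx2-1 did without cycling cells (−0.24). The markers Rprm and Ackr3 had values of −0.06 (SE 0.08) and 0.30 (SE 0.12), and Ackr3 was at 0.74 after thinning. Pde1a (−3.99), Dab1 (−3.22), Ntm (−2.99), Nkain3 (−2.90), Cdh8 (−2.83) and Cadm2 (−2.60) made up the rest of the genes with the largest fall.

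St18 itself was higher than in Sst cells, which held 6.09, 22.4, 11.8 and 31.1 CPM, in each library (log2 1.19, SE 0.22, adjusted p = 0.000517, edgeR). Nav2 (1.65), Gucy1a1 (1.57), Sox5 (1.54), Neb (1.42), Grb10 (1.38), Epha4 (1.22) and Rnd2 (1.14) were higher. Of 10 progenitor genes, 6 were higher and none lower, among them Top2a (1.27) and Mki67 (1.10). The cell division genes Cenpe (1.53), Cenpf (1.38) and Knl1 (1.35) were called too, and none of these 3 genes passed with cycling cells left out. Sst cells of WT replicate 2 held 10 erythroid cells, and 4 of 5 hemoglobin genes were lower in Npy/Maf cells. After thinning 1041 genes were called, with DESeq2 1058, without the block 985 and without null replicate 1 1177. Without the block the calls of St18, Zeb2, Sox6 and Mki67 were lost, and that of St18 after thinning too. Single libraries carried others, since Sox6 and Grik1 were lost without null replicate 1, and Tac1, Pnoc and Grik1 without null replicate 2. Grik1 was also lost with DESeq2.

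**Figure D4:**
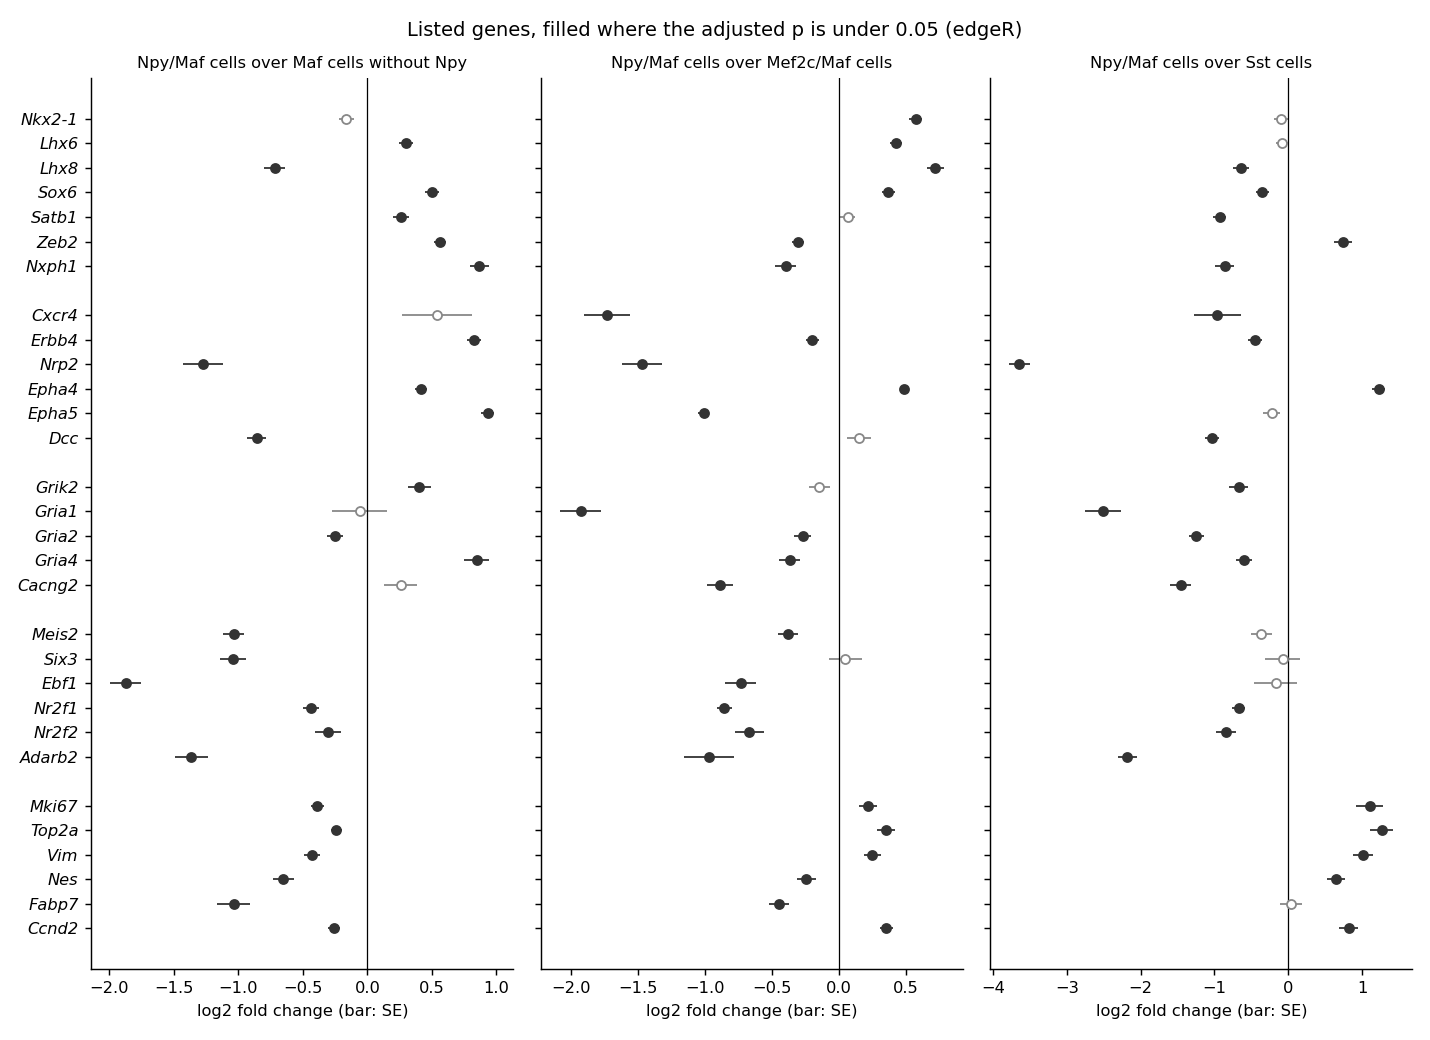
log2 fold changes with SE of listed genes in Npy/Maf cells over Maf cells without Npy, over Mef2c/Maf cells and over Sst cells, each panel with its own axis and filled points at an adjusted p under 0.05 (edgeR). Epha5 is higher in the left panel and lower in the middle one, and Lhx8 is lower on the left and higher in the middle.

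Null and WT libraries were then compared within Npy/Maf cells, to see which genes differed with the label. Since St18 did not separate the labels over all Npy/Maf cells and sex differed with them, a difference here is one between labels. Over all cells, loss of St18 and sex cannot be told apart in it. Male cells, which numbered 263, 89, 265 and 204, were also fitted alone. Of 10834 genes, 13 were higher (0.12%) and 64 lower in null (0.591%, in all 0.711% of the genes tested, edgeR, adjusted p under 0.05), and 1405 passed an unadjusted p of 0.05 (13%, 5.42% higher and 7.55% lower). Scaled by library totals alone, which moved the median of all genes by 0.14, 59 were higher and 24 lower. None of the 3 marker genes passed, with log2 fold changes of −0.09 (SE 0.17) for Rprm, 0.08 (SE 0.15) for Neto1 and −0.28 (SE 0.15) for Ackr3. Nor did Lhx6 (0.29, SE 0.15), Nkx2-1 (0.24, SE 0.14) or Lhx8 (0.14, SE 0.15), though Lhx6 passed without null replicate 1 (0.48), with the spread from the WT libraries alone, and 0 of 14 MGE interneuron genes passed, with 2 higher and 1 lower at an unadjusted p under 0.05. Across all lists 2 genes were called, Nes and Ccnd2.

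Nes, which encodes the progenitor filament nestin, was at 132 and 91.8 CPM in the null libraries and at 63.5 and 47.1 CPM in the WT libraries (log2 0.88, SE 0.19, adjusted p = 0.0418, edgeR). Ccnd2, a cyclin of the G1 phase, was at 603 and 584 CPM against 305 and 365 CPM (log2 0.69, SE 0.14, adjusted p = 0.0301, edgeR). In both genes the groups did not overlap, and both calls were lost without cycling cells, in male cells alone, with at least 5000 UMIs per cell and without WT replicate 2, and that of Nes also with doublets left out and with at least 3 Npy UMIs. Cycling cells were the larger share of Npy/Maf cells in null, as given above, and their part was not tested further. Ephb2 (0.88), Pou2f1 (0.74) and Golga4 (0.67) were higher. Genes outside the fixed lists were named between null and WT only where the groups did not overlap, so the choice set that trait in them. Xist (12.04), its antisense partner Tsix (8.59) and Kdm5c (0.79), which escapes X inactivation, were higher in null, and Y-linked Eif2s3y was lower (−1.18).

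Genes lower in null had no member of the fixed lists among them. Gm1673 was at 365 and 381 CPM against 566 and 681 CPM (log2 −0.87, SE 0.14, adjusted p = 0.00978, edgeR). The genotypes did not overlap, and the gene kept its call in male cells and without cycling cells, but not without WT replicate 1 or WT replicate 2. Gm11808 (−0.94), Phpt1 (−0.87), AA465934 (−0.84) and Hist1h4d (−0.93) were lower. Gm42418, annotated as a long noncoding RNA, was at 10311 and 18629 CPM against 27367 and 26848 CPM (log2 −1.05, SE 0.19, adjusted p = 0.0183, edgeR), a call lost in male cells, with DESeq2 and without either WT library.

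Groups of symbols were counted after the values were seen, so they carry no test. Of 92 ribosomal protein genes, 10 were lower and 0 higher. Of 92 genes of the respiratory chain and ATP synthase, 16 were lower and 0 higher, and of 46 histone genes 7 were lower and 0 higher. Together these were 33 of the 64 genes called lower, and 213 of the 230 had a negative fold change, with a median log2 of −0.43 against 0.0045 over all genes. Median mitochondrial shares differed with the labels, at 4.40% and 4.35% in null and 3.59% and 3.83% in WT, as did depth per cell, and their part in this result was not tested. All 77 genes had groups that did not overlap, as had 45.4% of all genes tested.

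**Figure D5:**
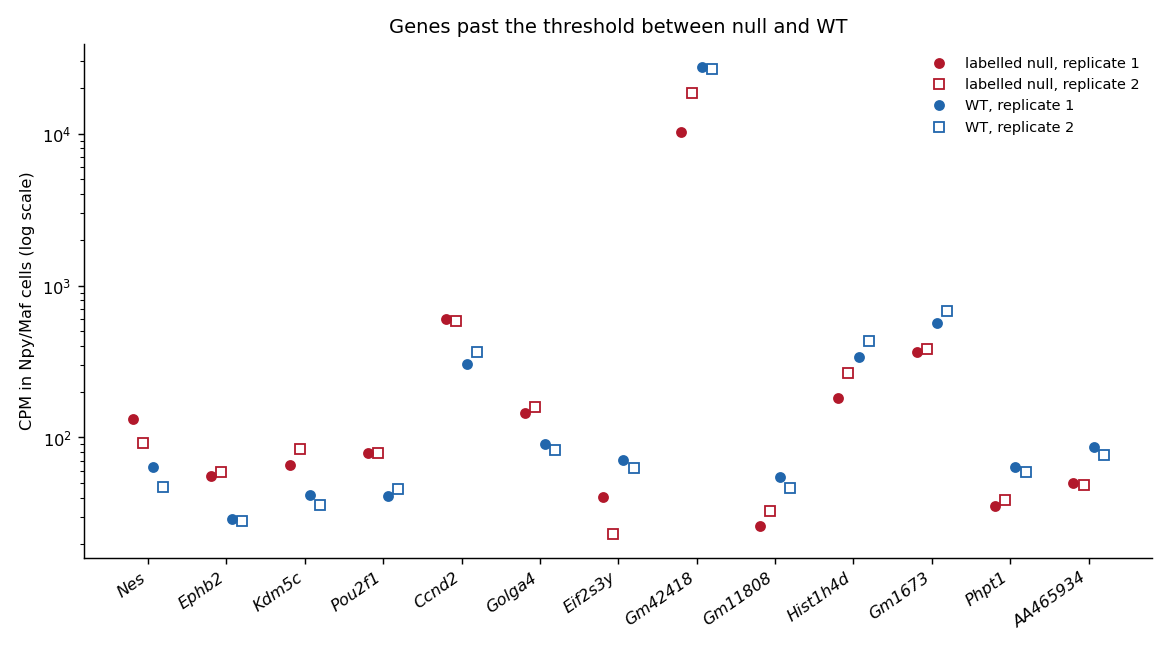
CPM in Npy/Maf cells on a log scale for 13 of the named genes past the threshold between null and WT, a point per library. Genes were named here only where the groups did not overlap, which held for 45.4% of all genes tested. Gm42418 ranges from 10311 to 27367 CPM.

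The calls of Ephb2, Kdm5c, Pou2f1, Golga4, Phpt1 and AA465934 were lost without either WT library, those of Ccnd2 and Gm11808 without WT replicate 1, and that of Hist1h4d without WT replicate 2. These calls and that of Eif2s3y were all lost in male cells, and all but that of Hist1h4d after thinning. Without cycling cells all but those of Golga4 and Gm11808 were lost. With at least 5000 UMIs those of Ephb2, Kdm5c, Pou2f1, Golga4, Phpt1 and Gm11808 were lost, with at least 3 Npy UMIs those of Ephb2, Kdm5c and Golga4, and with doublets left out that of Pou2f1.

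The number of calls depended on single libraries. It was 1222 without null replicate 1, 411 without null replicate 2, 26 without WT replicate 1 and 12 without WT replicate 2, where the lone library is assumed to vary like the others, so that without a null library the spread came from the WT libraries alone. In male cells 3 genes passed, and without cycling cells 26.

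A last comparison asked whether the difference between null and WT was another in Npy/Maf cells than in Maf cells without Npy. The interaction passed for 37 of 11081 genes (0.334% of the genes tested, edgeR, library as a block), 21 higher (0.19%) and 16 lower (0.144%). Rprm was at 511 ± 130 CPM in null and 497 ± 94.6 CPM in WT in Npy/Maf cells, and at 336 ± 112 and 458 ± 100 CPM in the cells without Npy (SD, n = 2 each). Its difference between null and WT was higher in Npy/Maf cells by a log2 of 0.52 (SE 0.08, adjusted p = 5.39e-05, edgeR). Lhx8 was at 143 ± 2.91 and 119 ± 17.5 CPM in null and WT Npy/Maf cells, and at 203 ± 15.0 and 248 ± 11.2 CPM in the others (log2 0.59, SE 0.11, adjusted p = 0.00269, edgeR). Neto1 (0.34, SE 0.15) and Ackr3 (0.24, SE 0.13) did not pass. Rprm lost its call without null replicate 2 and without WT replicate 1.

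Of 14 MGE interneuron genes, 4 were higher in this comparison, among them Lhx8, Lhx6 and Zeb2, and of 10 progenitor genes 3 were lower, namely Hes5, Vim and Fabp7. Fabp7 was at 457, 189, 163 and 134 CPM in Maf cells without Npy and at 133, 89.3, 124 and 105 CPM in Npy/Maf cells. Null replicate 1 of the cells without Npy stood apart, and the call of Fabp7 was lost without it. Of the 77 genes called between null and WT, 1 passed the interaction, so for the others a difference between the 2 groups of cells was not shown. The calls numbered 2 after thinning, 3 in male cells, 6 without cycling cells, and 15, 8, 2 and 10 without each library in turn, and every gene named here lost its call in several of these.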

How the data were processed

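Droplet RNA-seq (10x Genomics) of e14.5 MGE was analysed in 4 libraries, 2 per genotype. The authors aligned reads and counted UMIs with Cell Ranger, and deposited a raw count matrix per library over all barcodes. Per the labels this was Cell Ranger 5.0.1 on GRCm38, and per the file headers Cell Ranger 4. Positions are from GENCODE M21, where 99.6% of gene identifiers were found. The Npy/Maf cells, the gene lists and their alternatives were chosen with earlier results of these data known.

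Counts were summed per library and group of cells, so libraries were the replicates. Groups were compared with edgeR 4.0.16 in R 4.3.3 (TMM, filterByExpr, quasi-likelihood test, two-sided, Benjamini-Hochberg adjustment over all genes, threshold 0.05). Group comparisons had the library as a block, since both groups came from the same library, and left out the 7 rule genes and mitochondrial genes. The fits of null against WT and of the interaction kept these genes among those tested, and no test of a rule gene is given. Per direction, up to 8 genes were named, ranked by size of change among called genes that averaged 50 CPM or more and moved one way in every library, beside genes of the fixed lists, their examples chosen after their values were seen. The markers Rprm, Neto1 and Ackr3 are described without a test between groups of cells. They stayed in these fits, and where the text says so Neto1 or Ackr3 is counted among the genes called in a list. Shares were compared with an exact permutation test (scipy 1.17.1). Alternatives were thinning to 3000 UMIs, at least 5000 UMIs, at least 3 Npy UMIs, doublets left out, cells taken as male from Xist and Y-linked UMIs, other scaling, no filter, DESeq2 1.42.0, and each library left out. Scrublet (scanpy 1.11.5) called 0 to 0.0665% of cells as doublets by its own threshold, so it had not worked and doublets stayed in, and in the alternative the highest scores, at 0.8% per 1000 cells, were left out. The text names 2 alternatives chosen after seeing the data, leaving out cells of other classes and leaving out cycling cells. Before use, the fits were tested on simulated data, where they recovered 98% of genes changed by a log2 of 1 between null and WT and 57% in the interaction. The simulated libraries had the same small spread in both genotypes. The null replicates differed more, with a chi-square per degree of freedom of 8.08, so these shares can overstate what was recovered here. Intervals cover counting error only. Shares in single libraries rest on 2872 to 4759 neurons. Some genes are not reported here.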

Additional observations from a re-analysis of the deposited data

Results flagged for a closer look

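The difference between null and WT itself differed between Npy/Maf cells and Maf cells without Npy in the 15 listed genes given here (interaction test in edgeR, adjusted p under 0.05). The log2 interaction was positive for Rprm (0.52), Lhx8 (0.59), Lhx6 (0.33), Zeb2 (0.29), Epha4 (0.32), Plxna4 (0.54) and Id2 (0.63). It was negative for the progenitor genes Hes5 (−1.17), Vim (−0.37) and Fabp7 (−1.12). These calls were not stable, since of 11 alternatives Lhx6 lost its call in 10, Epha4 and Plxna4 in 9, Zeb2 and Id2 in 8, Vim in 7, Lhx8 and Hes5 in 6, Rprm in 5 and Fabp7 in 4, where for Hes5 thinning also turned the sign. Lhx6, Epha4, Plxna4, Zeb2 and Id2 lost it without each library in turn.

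The 5 hemoglobin genes Hbb-bs (5.60), Hbb-bt (6.34), Hbb-y (7.55), Hba-a1 (6.58) and Hba-a2 (6.89) had the largest values. Hbb-bs was at 36.7, 31.9, 3600 and 43.9 CPM in the cells without Npy, where WT replicate 1 held 2 erythroid cells, and the 5 calls were lost with cells of other classes left out. Groups of 2 libraries are too small to test single libraries as outliers.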

How the results depend on the processing

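The share of neurons that were Npy/Maf cells kept its direction in every alternative, with null minus WT at 1.15 to 3.995 percentage points. The count of these cells did too, with a log2 of 0.12 to 0.48, and did not pass the threshold. After thinning the shares of the genotypes overlapped, with null replicate 2 at 9.46% and WT replicate 1 at 10.6%. The exact permutation test of the share could not pass, since 0.333 is the smallest p this design allows. Counts of genes called were less stable. Leaving out 1 library at a time gave 12 to 1222 genes for null against WT, 563 to 1530 against Maf cells without Npy, 565 to 715 against Mef2c/Maf cells, 1177 to 2076 against Sst cells and 2 to 15 for the interaction. Thinning to 3000 UMIs gave 225 genes against Maf cells without Npy, 213 against Mef2c/Maf cells, 1041 against Sst cells and 2 for the interaction. Leaving out cycling cells, which was chosen after seeing the data, gave 26, 614, 635 and 6 genes for null against WT, Maf cells without Npy, Mef2c/Maf cells and the interaction. DESeq2 gave 143 genes for null against WT, 351 against Maf cells without Npy, 351 against Mef2c/Maf cells and 1058 against Sst cells. For null against WT there were also 23 genes with at least 5000 UMIs per cell, 43 with at least 3 Npy UMIs, 3 in male cells and 190 without a filter on low counts. For the interaction there were 20 with at least 5000 UMIs and 3 in male cells. Male cells and thinning hold fewer cells or UMIs, and the cause of a change in these counts was not tested for any setting.

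Some genes changed sign, of which Mki67, Hist1h1a, Cenpe, Hes5 and Hbb-bs had passed the threshold in the comparison as reported and the others had not. For null against WT, Rprm was at a log2 of 0.16 after thinning, 0.0094 with at least 5000 UMIs, 0.0056 without doublets, 0.018 without cycling cells and 0.042 with library totals alone, and ranged from −0.41 to 0.17 without single libraries. St18 was at −0.25 after thinning, −0.061 with at least 5000 UMIs, −1.04 in male cells and −0.36 without cycling cells, and ranged from −0.74 to 0.60. Against Maf cells without Npy, St18 was at −0.048 without cycling cells and ranged from −0.081 to 0.29, and Mki67, which helps define cycling cells, was at 0.11 without them. Against Mef2c/Maf cells, Neto1 was at −0.016 without doublets, −0.071 without cells of other classes (chosen after seeing the data), −0.079 without cycling cells, −0.042 with library totals alone and −0.00087 without a filter, and ranged from −0.12 to 0.094. Hist1h1a was there at −0.14 after thinning. Against Sst cells, Rprm was at 0.043 and Cenpe at −0.00055 without cycling cells. In the interaction, Hes5 was at 0.46 and Hbb-bs at −0.067 after thinning, and Ackr3 at −0.066 without cycling cells.

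Groups of cells from the same library were compared with the library as a block. With no replicate block, 90 genes were called against Maf cells without Npy, 118 against Mef2c/Maf cells and 985 against Sst cells, St18 was at −0.015 against the first and Neto1 at −0.0018 against the second. No paired analysis was possible because null and WT libraries share no replicate number from the labels, whose numbers here follow accession order only.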
